A study of Mus musculus with 12 samples.

Results

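Secreted proteins of the acute phase response were followed as 10 genes in mouse liver: the serum amyloid A genes Saa1, Saa2, Saa3 and Saa4, the orosomucoid genes Orm1 and Orm2, the pentraxin genes Apcs and Crp, the siderophore-binding lipocalin gene Lcn2 and the ceruloplasmin gene Cp. Probe sets were taken by gene symbol, with the brightest probe set for a gene that has several. Each of the 10 genes had exactly 1 probe set, out of 30142 genes named on the array. All 10 were among the 18725 genes tested, which were those with a mean log2 expression over the 12 arrays above 4.55, the median of all probe sets.

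The samples were livers of C57BL/6 males aged 12 weeks, with 4 arrays per group. By the series' design text, the F2 group held grandsons and the F3 group great-grandsons of obese Avy/a females, and the control group held males with lean parents. The labels of single samples call the F2 and F3 males sons of an obese mother. Avy/a females carry the viable yellow allele of agouti and become obese; the labels give neither the agouti genotype of the males measured, nor their diet, nor the generation of the control males. Whether replicates were separate animals is not in the labels; every p-value therefore reflects only how these arrays scatter, which may be technical, and precision is limited by their number. Array medians lay between 4.49 and 4.60. The arrays of any pair correlated with r between 0.967 and 0.993 across all probe sets, which are not independent replicates. The 6 hepatocyte markers averaged 12.36 to 12.54 in F2, 12.45 to 12.62 in F3 and 12.47 to 12.54 in control livers on the log2 scale, where the highest value of any probe set was 13.64.

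The acute phase response is the change in plasma proteins that follows injury, infection or other inflammation. Hepatocytes make most of these proteins: interleukin 6 acts through gp130 and STAT3, and interleukin 1 and tumour necrosis factor act through NF-kB, together with C/EBP factors. In the mouse, Saa1 and Saa2 are major inducible products that travel on high density lipoprotein, and serum amyloid P (Apcs) is the classical acute phase pentraxin, whereas C-reactive protein (Crp), a major reactant in humans, changes little. Saa4 is largely constitutive.

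The promoters of the Saa family are shown because its members shared a chromosomal cluster yet differed widely in how far they moved across these livers. RefSeq promoter sequences (GRCm38.p6, 250 bases before to 50 bases after the start site) were matched by symbol for 9 of the 10 genes. Orm1 was not matched. Each sequence reads 5′ to 3′ on the gene's strand, and capitals mark matches to a C/EBP motif (TTNNGNAA), a STAT motif (TTCNNNGAA) or an NF-kB motif (GGG, 5 bases of any kind, CC), searched on both strands. Saa1 lies at chr7:46742931-46743230 on the minus strand, Saa2 at chr7:46751583-46751882 on the plus strand, Saa3 at chr7:46715627-46715926 on the minus strand and Saa4 at chr7:46732554-46732853 on the minus strand.
Saa1: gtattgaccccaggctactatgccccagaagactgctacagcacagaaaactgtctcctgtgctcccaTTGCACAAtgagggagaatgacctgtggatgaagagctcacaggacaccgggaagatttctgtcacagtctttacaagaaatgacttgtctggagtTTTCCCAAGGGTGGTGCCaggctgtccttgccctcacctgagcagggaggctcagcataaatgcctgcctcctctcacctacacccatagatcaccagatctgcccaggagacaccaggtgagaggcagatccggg
Saa2: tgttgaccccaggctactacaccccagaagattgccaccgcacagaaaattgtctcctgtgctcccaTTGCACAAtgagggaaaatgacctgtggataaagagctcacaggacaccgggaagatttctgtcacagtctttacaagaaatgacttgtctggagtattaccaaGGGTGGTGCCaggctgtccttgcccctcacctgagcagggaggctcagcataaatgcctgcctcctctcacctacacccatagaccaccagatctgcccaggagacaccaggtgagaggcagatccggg
Saa3: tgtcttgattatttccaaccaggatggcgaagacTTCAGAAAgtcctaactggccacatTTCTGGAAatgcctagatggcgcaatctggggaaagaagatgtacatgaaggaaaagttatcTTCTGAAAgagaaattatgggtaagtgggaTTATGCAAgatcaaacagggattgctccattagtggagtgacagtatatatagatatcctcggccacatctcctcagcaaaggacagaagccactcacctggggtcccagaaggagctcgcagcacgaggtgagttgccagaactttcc
Saa4: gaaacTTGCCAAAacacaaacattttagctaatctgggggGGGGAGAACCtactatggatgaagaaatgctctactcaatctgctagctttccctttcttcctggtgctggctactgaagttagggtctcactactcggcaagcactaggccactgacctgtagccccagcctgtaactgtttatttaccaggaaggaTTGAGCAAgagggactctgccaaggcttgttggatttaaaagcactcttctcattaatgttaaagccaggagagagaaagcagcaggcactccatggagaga

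The Saa1 and Saa2 promoters were identical at 95.3% of 301 alignment columns, against 46.8% of 325 columns for Saa1 and Saa4 and 50.9% of 324 columns for Saa1 and Saa3. Saa1 held 2 C/EBP matches and Saa2 held 1. Both held 1 NF-kB match, as did Saa4, and Saa3 held 4 C/EBP matches and no match of the other motifs. No match of one motif overlapped a match of another in these 4 windows, although the second C/EBP match of Saa1 and its NF-kB match are adjacent. Over the 9 genes, 8 had a C/EBP match, 6 an NF-kB match and 1, Apcs, a STAT match. The same motifs occurred in 40.7%, 50.8% and 8.30% of 32851 promoters of the same length, so a match is a description of the letters and no evidence of a bound site.

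Saa1 and Saa2 had the widest swings. Saa1, an inducible apolipoprotein of high density lipoprotein, measured 9.67, 12.66, 9.03 and 7.85 on the log2 scale in F2 livers, 8.57, 8.51, 11.95 and 11.65 in F3 livers, and 12.03, 7.06, 8.88 and 8.75 in control livers, replicates 1 to 4 in each group. A high level thus occurred in every group: in F2 replicate 2, in F3 replicates 3 and 4 and in control replicate 1, while the lowest level was that of control replicate 2. The groups overlapped over most of their range. Saa1 averaged 9.80 ± 2.05 in F2, 10.17 ± 1.89 in F3 and 9.18 ± 2.07 in control livers (SD, n = 4 each). The differences were 0.62 (SE 1.21, 95% interval -2.01 to 3.26) for F2 minus control and 0.99 (SE 1.21, -1.64 to 3.63) for F3 minus control.

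Saa2, the close copy of Saa1, measured 8.45, 12.07, 7.77 and 6.62 in F2, 7.30, 7.33, 11.08 and 10.73 in F3, and 11.30, 5.94, 7.67 and 7.70 in control livers. The same 4 arrays were high and the same array was lowest. Between the lowest and the highest array Saa1 differed 48.5-fold, or 31.3-fold without F2 replicate 2 and 28.1-fold without control replicate 2. Saa2 spanned 6.13 on the log2 scale, or 5.37 without F2 replicate 2 and 5.45 without control replicate 2. No exact fold is given for Saa2, because 2 of its arrays (5.94 and 6.62) lay under 7.05, the 95th percentile of 5222 negative control probe sets, and the lowest Saa1 value, 7.06, lay next to it. Saa2 differed by 0.58 (SE 1.35, -2.35 to 3.51) for F2 minus control and by 0.96 (SE 1.35, -1.97 to 3.89) for F3 minus control. Probes of such similar genes can share signal, and whether these probe sets separate the copies was not tested.

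Saa3, which in the mouse is made mainly by macrophages and adipocytes, measured 5.55, 7.21, 5.49 and 5.36 in F2, 5.50, 5.39, 6.39 and 6.17 in F3, and 6.19, 5.28, 5.63 and 5.53 in control livers. F2 replicate 2 stood alone at the top, and F3 replicates 3 and 4 and control replicate 1 came next. These levels were low: 11 of the 12 lay under the 95th percentile of the negative control probe sets, whose median was 4.24. Saa4, the constitutive member, measured 12.49, 12.75, 12.66 and 12.29 in F2, 12.45, 12.44, 12.38 and 12.46 in F3, and 12.70, 12.10, 12.35 and 12.38 in control livers. The high F3 arrays of Saa1 were not raised for Saa4, whose F3 values spanned only 0.08, but F2 replicate 2 was again highest and control replicate 2 lowest. Saa3 differed by 0.24 (SE 0.38) for F2 minus control and by 0.20 (SE 0.38) for F3 minus control, and Saa4 by 0.16 (SE 0.12) and 0.05 (SE 0.12) in the same comparisons.

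**Figure D1:**
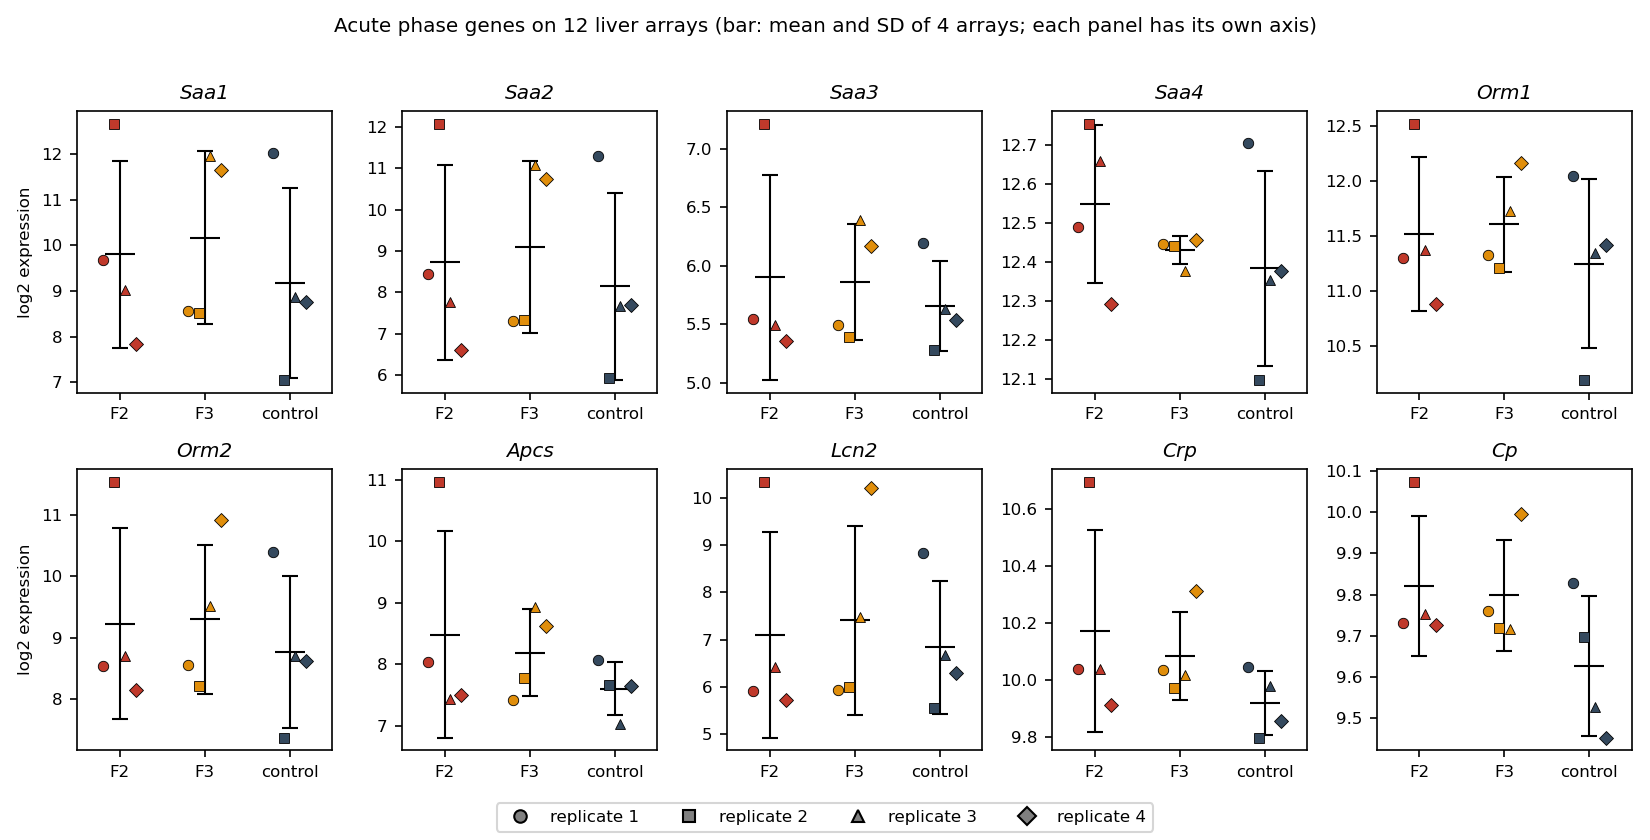
Log2 expression of the 10 genes, 1 panel per gene with its own vertical axis. Points are single arrays of the F2, F3 and control groups, with a symbol for each replicate number, and bars give the mean and SD of 4 arrays. F2 replicate 2 (red square) is the highest array in all 10 panels, and in the Saa1 and Saa2 panels each group holds high and low arrays.

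The orosomucoids, plasma proteins that bind drugs and lipids, moved alongside. Orm1 measured 11.30, 12.52, 11.37 and 10.88 in F2, 11.33, 11.21, 11.73 and 12.16 in F3, and 12.05, 10.19, 11.34 and 11.42 in control livers. Orm2 measured 8.54, 11.53, 8.70 and 8.15 in F2, 8.55, 8.22, 9.52 and 10.92 in F3, and 10.39, 7.38, 8.70 and 8.63 in control livers. F2 replicate 2, F3 replicate 4 and control replicate 1 were the 3 highest arrays for both genes, 1 from each group, and control replicate 2 was the lowest. All groups overlapped. The range of Orm2 was 17.8-fold, or 11.6-fold without F2 replicate 2 and 10.4-fold without control replicate 2, and that of Orm1 was 5.03-fold, or 3.12-fold without control replicate 2. Orm1 differed by 0.27 (SE 0.40) for F2 minus control and 0.36 (SE 0.40) for F3 minus control, and Orm2 by 0.46 (SE 0.81) and 0.53 (SE 0.81). Orm1 and Orm2 are near copies, as for the Saa genes above, and whether their probe sets separate them was not tested.

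The 2 pentraxins, ring-shaped proteins that bind microbial surfaces and debris, differed in range. Apcs measured 8.04, 10.97, 7.44 and 7.50 in F2, 7.42, 7.79, 8.93 and 8.63 in F3, and 8.07, 7.67, 7.03 and 7.66 in control livers. Its range of 3.94 on the log2 scale rested on F2 replicate 2, since the array next below it was at 8.93, and was 1.91 without that array. Its lowest array, control replicate 3 at 7.03, lay just under the negative control percentile of 7.05. Crp measured 10.04, 10.69, 10.04 and 9.91 in F2, 10.03, 9.97, 10.02 and 10.31 in F3, and 10.04, 9.80, 9.98 and 9.86 in control livers, a range of 1.86-fold. The difference of Apcs was 0.88 (SE 0.65, 95% interval -0.54 to 2.30) for F2 minus control, which was 0.0547 without F2 replicate 2, and 0.59 (SE 0.65, -0.83 to 2.00) for F3 minus control. Crp differed by 0.25 (SE 0.15) for F2 minus control, which was 0.0775 without F2 replicate 2, and by 0.16 (SE 0.15) for F3 minus control.

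Lcn2 and Cp encode proteins of metal handling: lipocalin 2 sequesters bacterial iron carriers, and ceruloplasmin carries copper and oxidises iron. Lcn2 measured 5.92, 10.33, 6.42 and 5.73 in F2, 5.94, 6.00, 7.48 and 10.21 in F3, and 8.83, 5.55, 6.67 and 6.30 in control livers. One array in each group stood above the rest, namely F2 replicate 2, F3 replicate 4 and control replicate 1. The range over all arrays was 4.79 on the log2 scale; 8 of the 12 arrays, at 5.55 to 6.67, lay under the negative control percentile of 7.05, so no exact fold is given. Cp measured 9.73, 10.07, 9.75 and 9.73 in F2, 9.76, 9.72, 9.72 and 9.997 in F3, and 9.83, 9.70, 9.53 and 9.45 in control livers. The same 3 arrays were highest for Cp within a range of 1.54-fold, and control replicates 3 and 4 were the lowest. Lcn2 differed by 0.26 (SE 1.14, 95% interval -2.22 to 2.75) for F2 minus control and 0.57 (SE 1.14, -1.91 to 3.05) for F3 minus control. Without F2 replicate 2 the first of these was -0.81, and without F3 replicate 4 the second was -0.36. Cp differed by 0.19 (SE 0.11) for F2 minus control and 0.17 (SE 0.11) for F3 minus control.

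The 3 groups were compared to ask whether obesity of a female ancestor was followed by a different level of these genes in the livers of later males. All 10 genes had a higher mean in F2 than in control livers and all 10 a higher mean in F3 than in control livers, while 5 of 10 were higher in F3 than in F2 livers. Of all genes tested, 43.3%, 45.3% and 51.4% were higher in these comparisons. Both comparisons with control use the same 4 control arrays. Saa1, Saa2, Orm1, Orm2 and Lcn2 had the order F3, F2, control from high to low, and Saa3, Saa4, Apcs, Crp and Cp had the order F2, F3, control. No neighbouring groups in either order differed past the threshold. The median difference over the 10 genes was 0.27 for F2 minus control and 0.44 for F3 minus control, against a median of -0.01 over all genes tested in both comparisons. For F3 minus F2 it was 0.02, against a median of 0.003 over all genes.

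None of the 10 genes passed limma's test at an adjusted p under 0.05 in any comparison, and the percentage of all genes that passed was 0% in each of the 3 comparisons. The smallest adjusted p over all genes was 0.99992 for F2 minus control, 0.99977 for F3 minus control and 0.99993 for F3 minus F2. Without adjustment 172, 548 and 443 of the 18725 genes had p under 0.05, and 0 of the 10 acute phase genes. The lowest unadjusted p among them was 0.0887, for Cp in F2 minus control. No acute phase gene had groups without overlap, which occurred in 0.705% of all genes for F2 minus control, 1.63% for F3 minus control and 2.46% for F3 minus F2. Cp and Crp differed between F2 and control by more than their pooled within-group SD of 0.159 and 0.232, and Cp also between F3 and control; the other 8 genes differed by less than that SD in both comparisons. The intervals of Saa1, Saa2 and Lcn2 were wide on both sides of 0, so 4 arrays per group did not settle the size or sign of their differences.

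**Figure D2:**
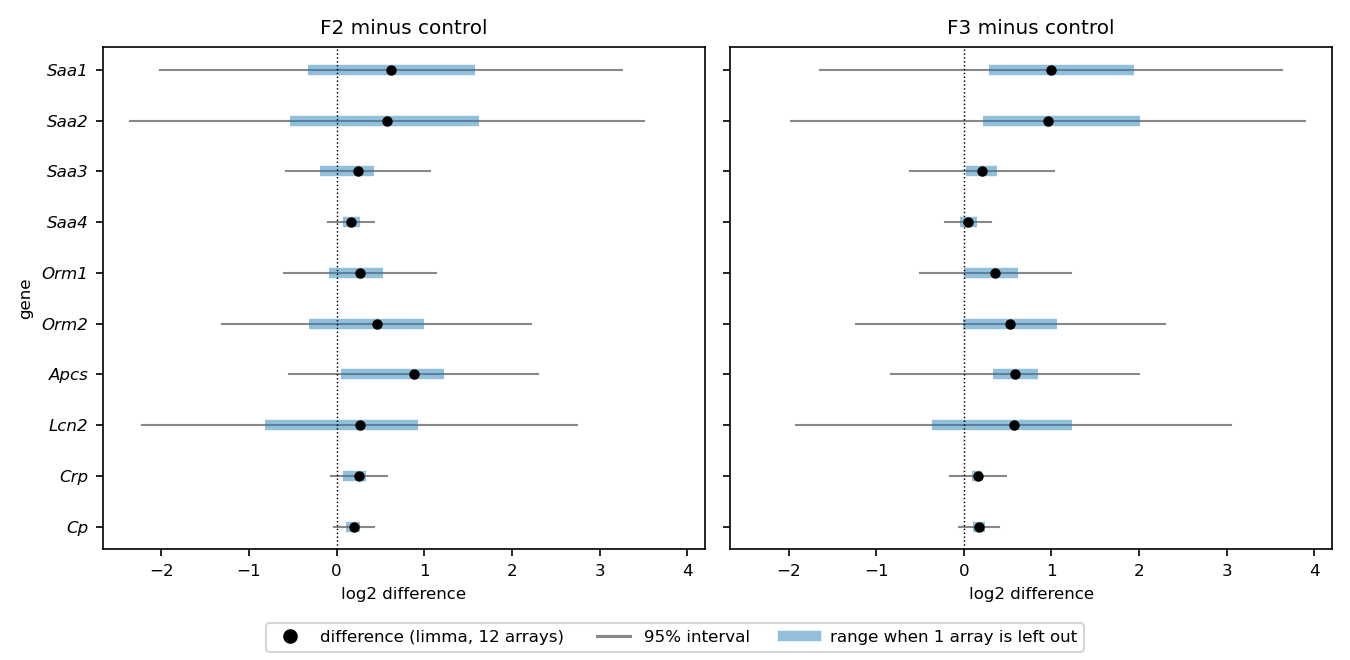
Log2 difference of each gene for F2 minus control (left) and F3 minus control (right), from limma over 12 arrays. Points are differences, thin lines 95% intervals, and thick blue lines the range of the difference when 1 array is left out; every interval includes 0, and the blue range crosses 0 for 6 genes on the left (Saa1, Saa2, Saa3, Orm1, Orm2 and Lcn2) and 3 on the right (Saa4, Orm2 and Lcn2).

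The direction of the F2 difference rested on single arrays. Without F2 replicate 2, 4 of 10 genes were higher in F2 than in control livers (Saa4, Apcs, Crp and Cp), and Saa1 differed by -0.33 and Saa2 by -0.54. Without control replicate 2, 5 of 10 were higher, and with both arrays left out 4 of 10 were higher and Saa2 differed by -1.28. For F3 minus control the number higher was 8 to 10 whichever array was left out, and Saa1 ranged from 0.29 without control replicate 2 to 1.94 without control replicate 1. For F3 minus F2 the number higher was 0 without F2 replicate 4 or without F3 replicate 4, and 9 without F2 replicate 2.

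The arrays also fell into 2 sets by their mean level of 337 small nucleolar RNAs, 7 arrays at 6.33 or above and 5 at 6.03 or below on the log2 scale. The higher set held F2 replicates 1 and 4, F3 replicates 1, 2 and 3, and control replicates 2 and 4. Within the higher set Saa1 differed by 0.85 for F2 minus control and 1.77 for F3 minus control, and within the lower set by 0.39 and 1.20. Apcs differed by 0.11 for F2 minus control within the higher set and 1.66 within the lower set, which holds F2 replicate 2. In F2 minus control 9 of 10 genes were higher within the higher set and 10 of 10 within the lower set, and in F3 minus control 10 of 10 and 9 of 10. Each F2 minus control count compared 2 arrays with 2. These included control replicate 2 in the higher set and F2 replicate 2 in the lower set. Over all arrays the F2 minus control count was smaller with both of those left out, as given above. The lower set holds a single F3 array. F2 replicate 2, F3 replicate 4 and control replicate 1, the 3 highest arrays for Orm1, Orm2, Lcn2 and Cp, all lay in the lower set. F2 replicate 2 had the lowest small nucleolar RNA level of all arrays (5.89) and control replicate 2 the highest (6.44). The lower set also holds control replicate 3 (5.90) and F2 replicate 3 (5.96). F3 replicate 3, high for Saa1, lies in the higher set (6.34). How the acute phase levels relate to this level was not tested.

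Variation lay mainly between arrays of one group, as it did for the median gene tested. The share of the variance that lay between the 3 groups was 1.99% for Lcn2, 4.00% for Saa2, 5.28% for Saa1 and 28.6% for Cp, the highest of the 10, against a median of 9.61% over all genes. The share also lay above that median for Crp (21.3%), Saa4 (15.5%) and Apcs (13.3%), and below it for Orm1, Orm2 and Saa3. Saa2 had the largest within-group SD of all 18725 genes tested, 2.23 on the log2 scale. Saa1 ranked 4 (SD 2.00), Lcn2 6 (1.89), Orm2 16 (1.34) and Apcs 43 (1.08). Orm1 ranked 188 (0.653) and Saa3 228 (0.622), so 7 of the 10 lay above the 95th percentile of all genes, 0.327. Crp, Saa4 and Cp, with SDs of 0.232, 0.186 and 0.159, lay nearer the median of all genes, 0.128. Without F2 replicate 2 the SD of Apcs was 0.534, that of Saa3 0.387 and that of Crp 0.122.

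**Figure D3:**
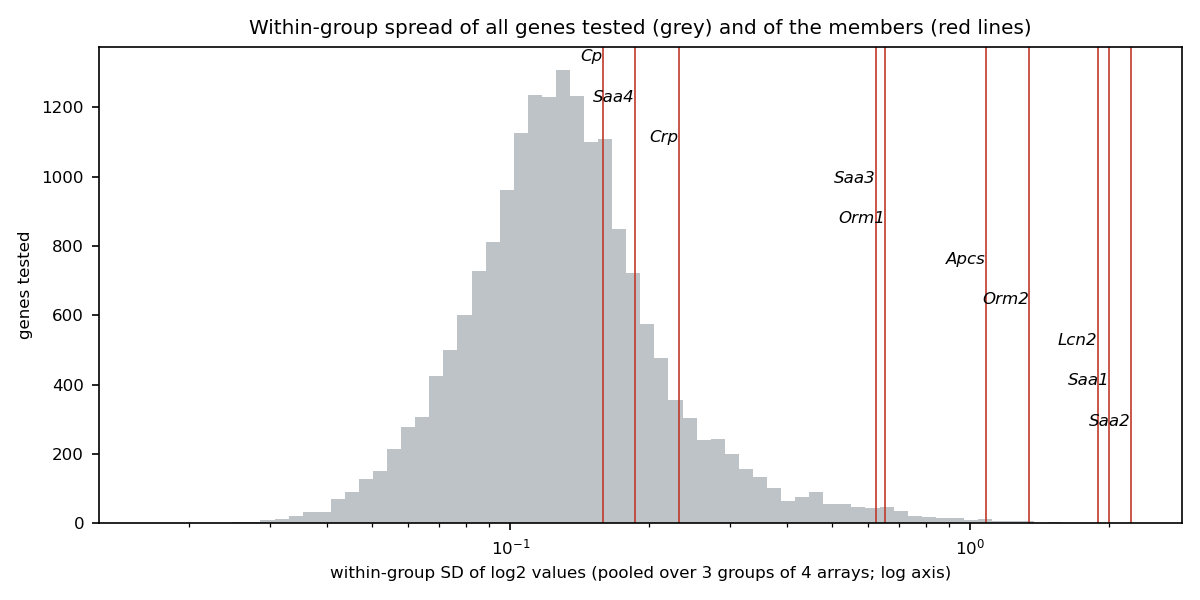
Number of genes (vertical axis) by within-group SD of log2 expression (horizontal log axis), pooled over the 3 groups of 4 arrays, for 18725 genes in grey. Red lines mark the 10 acute phase genes, from Cp at 0.159 to Saa2 at 2.23; 7 of them lie above the 95th percentile of all genes, 0.327.

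The same arrays were high or low for most of the 10 genes. F2 replicate 2 was the highest of the 12 arrays for 10 of 10 genes, as it was for 10.2% of all genes tested. Control replicate 2 was the lowest for 8 of 10, as it was for 22.4% of all genes tested. These 2 arrays were singled out after their values were seen. Control replicate 1 was among the 4 highest arrays for 10 of 10 genes, F3 replicate 4 for 9 and F3 replicate 3 for 7. No other array was among the 4 highest for more than 2 genes. Control replicate 1 and F3 replicates 3 and 4 were likewise named after their values were seen. The share of all genes tested for which they were among the 4 highest was not computed.

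**Figure D4:**
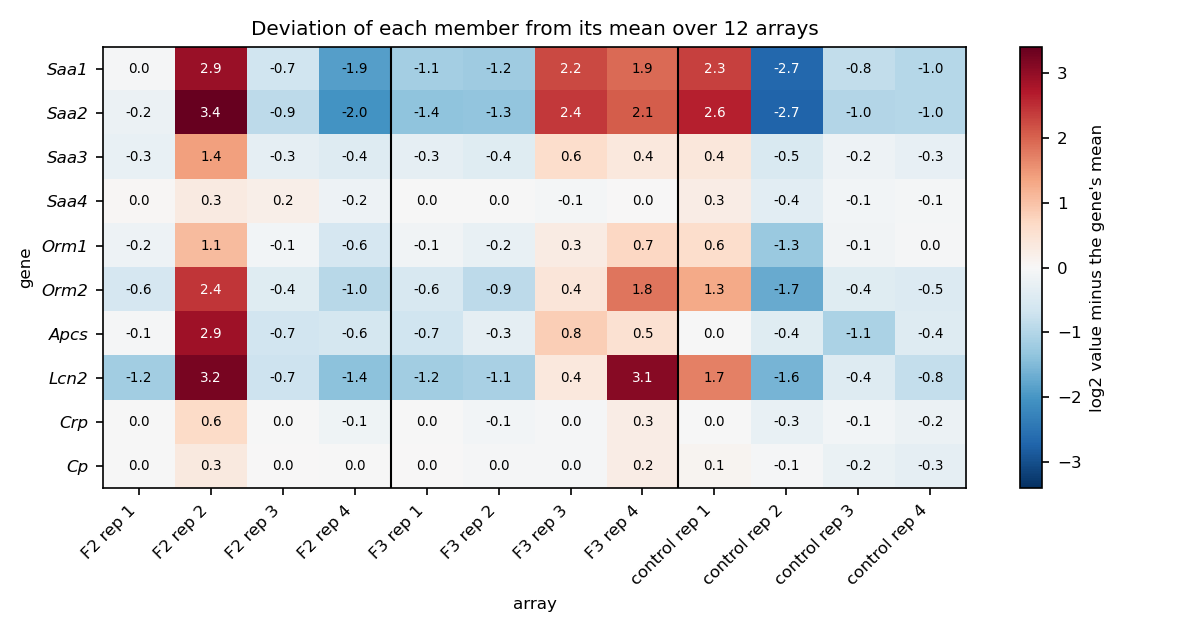
Log2 value of each gene (rows) on each array (columns, F2, F3, then control) minus the gene's mean over 12 arrays; red is above and blue below the mean. The columns of F2 replicate 2, F3 replicates 3 and 4 and control replicate 1 are red for Saa1, Saa2, Orm1, Orm2 and Lcn2, and that of control replicate 2 is blue.

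Several immune cell markers were highest on F2 replicate 2, but their order over the other arrays only partly followed that of the 10 genes. All 8 Kupffer cell and macrophage markers were highest in F2 replicate 2, where their mean level was 8.25, within a range of 7.45 to 8.25 in F2, 7.26 to 7.92 in F3 and 7.57 to 7.84 in control livers. None of the 8 was lowest in control replicate 2. Within F3, all of the 8 but Marco and Cd68 were lower in replicate 4 than in replicate 1. Cd5l, for example, measured 8.37 in F3 replicate 4, 9.02 in F3 replicate 1 and 9.21 in F3 replicate 3. The 6 lymphocyte markers with a probe set averaged 4.64 to 5.05 in F2, 4.71 to 4.88 in F3 and 4.70 to 5.02 in control livers, with F2 replicate 2 the highest array. Of the 4 that passed the filter, 3 were highest in F2 replicate 2 and 3 were lowest in control replicate 2. These arrays were highest and lowest for 10.2% and 22.4% of all genes tested. Every lymphocyte marker value lay under 7.05, the 95th percentile of the negative control probe sets, the highest being 6.06 for Cd3e. The 10 neutrophil markers averaged 4.35 to 4.69 in F2, 4.38 to 4.51 in F3 and 4.25 to 4.67 in control livers. These levels lay near the median of the negative control probe sets. The highest arrays of F2 and control were F2 replicate 2 and control replicate 1. S100a8 and S100a9 were highest on those 2 arrays, so the order of these means may reflect those 2 genes and not the list. Of the 6 that passed the filter, 0 were highest in F2 replicate 2. S100a9, a calprotectin subunit gene, measured 5.33 in F2 replicate 2 and 5.51 in control replicate 1, against 4.50 to 4.97 on the other 10 arrays. S100a8, its partner, which did not pass the filter, measured 4.46 and 4.64 on those 2 arrays and 2.60 to 3.29 on the others. Most other neutrophil markers did not share this pattern. Camp, Ltf, Elane and Mpo were highest in control replicate 3, Ly6g in control replicate 4 and Cxcr2 in F3 replicate 2. Ngp was highest in control replicate 1 and Retnlg in F2 replicate 2. The part of the immune cell markers in the levels of the acute phase genes was not tested. In bulk liver a change in cell numbers and a change in RNA per cell cannot be told apart.

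Co-variation was computed for all 45 pairs of the 10 genes. The Saa1 and Saa2 values formed separate clusters of 8 lower and 4 higher arrays, with no Saa1 value between 9.67 and 11.65 and no Saa2 value between 8.45 and 10.73, so the 17 pairs with these genes were given no r over all arrays. Over the other 28 pairs, Pearson's r over 12 arrays was 0.50 to 0.98 with a median of 0.79, and 26 passed an adjusted p under 0.05 (permutation test with 100000 resamples, two-sided, Benjamini-Hochberg over the 28 pairs). By Spearman's rank correlation 15 of the 28 passed. The share of pairs of other genes that would pass was not computed, here or for the counts over fewer arrays below. Control replicate 2 was the lowest array for 22.4% of all genes tested, and whether these counts exceed those of other genes was not tested. With group means subtracted the median r was 0.81. Without the 2 arrays farthest from the median of the first gene the median r was 0.60, and 10 of the 28 pairs had r under 0.5.

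Orm2 and Lcn2 were the closest of these pairs, with r = 0.98 and rho = 0.97 (permutation p = 1e-05 for each, the smallest that 100000 resamples can give; adjusted p = 9.3e-05) and r = 0.95 without the 2 farthest arrays. Orm1 and Orm2 gave r = 0.95 and rho = 0.98 (permutation p = 1e-05 for each; adjusted p = 9.3e-05), and r = 0.97 without the 2 farthest arrays. Saa3 and Apcs gave r = 0.92 (permutation p = 0.00063, adjusted p = 0.00196) and rho = 0.62 (permutation p = 0.0346, adjusted p = 0.0606), with r = 0.64 without the 2 farthest arrays. Saa4 and Apcs were the loosest pair, with r = 0.50 and rho = 0.42 (permutation p = 0.111 and 0.179), and r was 0.08 without the 2 farthest arrays, so that value rested on them.

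Within the 8 arrays below the gap in Saa1, which hold F2 replicates 1, 3 and 4, F3 replicates 1 and 2, and control replicates 2, 3 and 4, r was positive in 34 of 45 pairs with a median of 0.63. By Pearson's r 14 of the 45 pairs passed an adjusted p under 0.05 in an exact permutation test, and by Spearman's rho 0 passed (10 had an unadjusted p under 0.05, and the smallest adjusted p was 0.0502). Saa1 and Saa2 gave r = 0.996 and rho = 0.95 there (exact permutation p = 9.92e-05 and 0.00114, adjusted p = 0.00446 and 0.0502), with r = 0.98 without the 2 farthest arrays. Saa1 and Orm1 gave r = 0.88 and rho = 0.69 (exact permutation p = 0.00831 and 0.0694, adjusted p = 0.0332 and 0.173), with r = 0.93 without the 2 farthest. The r of Apcs depended on the arrays used: for Apcs and Lcn2 it was 0.76 over 12 arrays and -0.57 within these 8 (exact permutation p = 0.137, adjusted p = 0.243). The 4 higher arrays are too few for a correlation. Within the 7 arrays of the higher small nucleolar RNA set, r was positive in 42 of 45 pairs with a median of 0.70. Apcs gave r = 0.87 with Lcn2 and 0.92 with Saa3 there. That set lacks F2 replicate 2 but holds F3 replicate 3, its only array above the gap in Saa1. Apcs measured 8.93 on F3 replicate 3, against at most 8.04 on the other arrays of the set. Saa3 measured 6.39 there against at most 5.55, and Lcn2 7.48 against at most 6.30. The 45 pairs of this set include the 17 with Saa1 or Saa2, which cross the gap only through that array. No r was computed for the set without F3 replicate 3, so its r values and counts cannot be read apart from that array. The 5 arrays of the lower set are too few.

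**Figure D5:**
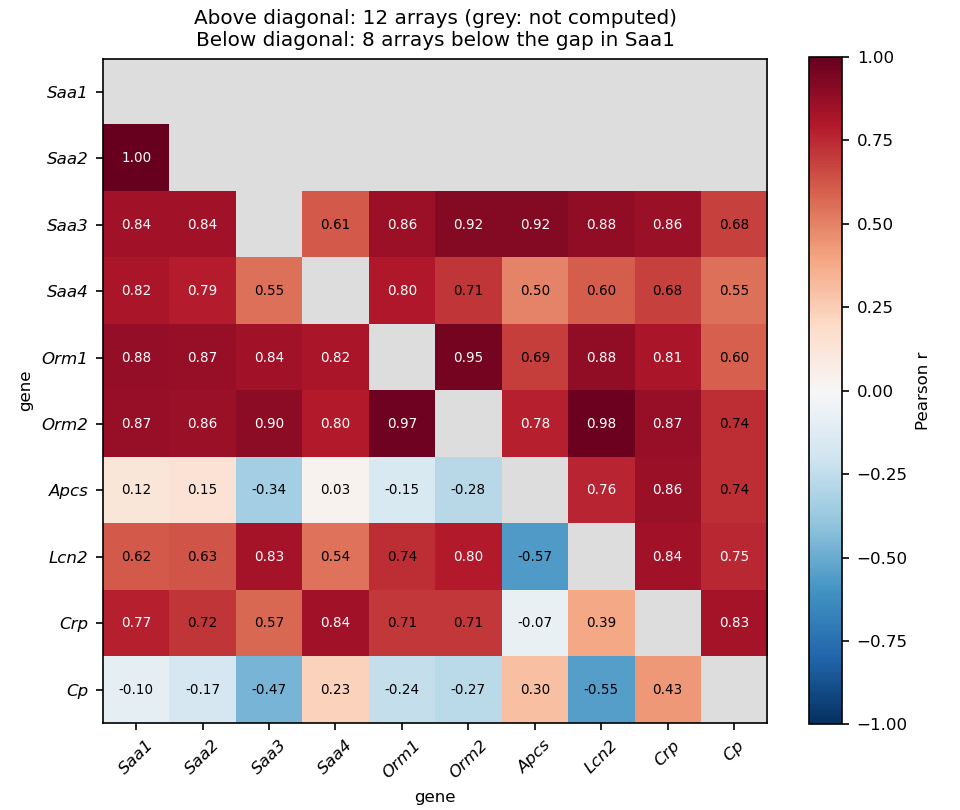
Pearson's r for each pair of the 10 genes, over 12 arrays above the diagonal and over the 8 arrays below the gap in Saa1 under it; grey cells were not computed. Above the diagonal all 28 values are positive, and below it the rows and columns of Apcs and Cp hold the 11 negative values.

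The genes outside the 10 whose pattern over the 12 arrays was most like each of them, by Pearson's r among all other genes tested, included several known plasma proteins of the liver. Saa1 and Saa2 are left out here, because their values fall into separate clusters. Hemopexin (Hpx), which binds free heme, was closest to Orm1 (r = 0.964). The inter-alpha-trypsin inhibitor heavy chain genes Itih3 (0.976) and Itih4 (0.974) were closest to Saa3. For Orm2, Slc25a12, a mitochondrial aspartate/glutamate carrier gene (0.963), and Serpina3n, a protease inhibitor gene (0.962), came first, both below the r of Orm2 with Lcn2 given above. Slc25a12 was also closest to Lcn2 (0.978). Il1r1, the gene of the interleukin 1 receptor, was closest to Saa4 (0.913), Cpne8 to Apcs (0.983), Apon to Crp (0.950) and Gm13937 to Cp (0.909). These r values are descriptions over 12 shared arrays.

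Other genes of the response were counted from lists. Of 30 tested genes among 36 other positive acute phase genes, 25 were higher in F2 than in control livers (median difference 0.16), 20 higher in F3 than in control (0.09) and 6 higher in F3 than in F2 (-0.06), and 0 passed the test in any comparison. The lowest p for F2 minus control belonged to Mbl1, a mannose-binding lectin, at 0.34 (SE 0.16), and to the fibrinogen chains Fgb at 0.16 (SE 0.09) and Fgg at 0.16 (SE 0.10). For F3 minus control they belonged to Fgb at 0.16 (SE 0.09), the complement gene C9 at 0.60 (SE 0.35) and the lipopolysaccharide receptor gene Cd14 at -0.22 (SE 0.14), and for F3 minus F2 to the metallothionein Mt2 at -1.23 (SE 0.81), the interleukin 1 antagonist gene Il1rn at -0.21 (SE 0.14) and Mbl2 at 0.20 (SE 0.13). F2 replicate 2 was the highest array for 22 of the 30 genes and control replicate 2 the lowest for 13.

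Of 11 tested genes that fall in the acute phase response, 7 were higher in F2 than in control livers and 8 higher in F3 than in control, with 0 passing the test; F2 replicate 2 was highest for 0 of the 11. Among 20 tested cytokine, receptor and regulator genes, 16 were higher in F2 than in control, 8 higher in F3 than in control and 5 higher in F3 than in F2, again with 0 passing. Il6 itself lay between 2.04 and 2.32 on the log2 scale on all arrays and did not pass the filter. Stat3 measured 8.12, 8.99, 8.26 and 8.19 in F2, 8.21, 8.07, 8.26 and 8.24 in F3, and 8.43, 8.15, 8.21 and 8.19 in control livers, with F2 replicate 2 highest and control replicate 1 next. Il1r1 measured 8.71, 9.21, 9.18 and 8.58 in F2, 8.70, 8.72, 8.41 and 8.80 in F3, and 9.06, 7.87, 8.13 and 8.21 in control livers, with a difference of 0.60 (SE 0.22) for F2 minus control that did not pass the test. Of 8 tested genes for receptors and clearance of the secreted proteins, 4 were higher in F2 than in control, 3 higher in F3 than in control and 2 higher in F3 than in F2, and 0 passed.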

How the data were processed

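Liver RNA was measured on 12 arrays; the labels' protocols give Trizol extraction and a whole-transcript labelling kit with 100 ng of total RNA. The authors deposited log2 expression values per probe set. Per the submitters' processing notes they used Affymetrix Expression Console; the version, background correction, normalization and genome build were not stated in the labels or files. That the values are on a log2 scale follows from their range, 0.73 to 13.64. Of 72688 probe sets, 32750 were in the platform annotation, 30604 with 1 symbol and 2146 with several; 827 symbols were updated through a RefSeq table, and 39938 probe sets were unnamed here.

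All 12 arrays were fitted with limma 3.58.1 in R 4.3.3 (3 groups, 9 residual degrees of freedom, no covariate), with Benjamini-Hochberg adjustment over the 18725 genes tested and a threshold of 0.05. Correlations were tested by permutation in numpy 2.4.6, and promoters were aligned with Biopython 1.88. The fit was tested on simulated data. All 10 acute phase genes are named; from the list of other positive acute phase genes the 3 with the lowest p per comparison are named, from the cytokine, receptor and regulator genes those described with values, and per acute phase gene the most similar genes. The genes, lists, array sets and tests were chosen with earlier results of these data known.

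Alternatives changed the normalization (quantile, or array medians set equal), the filter (none, or a mean above 5.92), the probe sets per gene (their mean), the variance model (trend with robust eBayes, or weights per array), the arrays in the fit (2 groups, or 1 array left out), a block (replicate number, or array set) and the threshold (0.10). Each array set alone, the 8 arrays below the gap in Saa1, and leaving out 2 arrays together were added after seeing the data. Same-numbered arrays of different groups deviated together (r over 0.1) in 3 of 12 pairs, so the numbers were not treated as pairs.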

Additional observations from a re-analysis of the deposited data

Results flagged for a closer look

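In 7 of the 30 sets of 4 values (10 genes in 3 groups), the highest array lay so far from the rest of its group that the gap exceeded the 95% critical value of Dixon's test; chance marks about 1 in 20 such sets. In the F2 group this was replicate 2 for Saa3 (7.21), Orm2 (11.53), Apcs (10.97), Lcn2 (10.33), Crp (10.69) and Cp (10.07) on the log2 scale. In the F3 group it was replicate 4 for Cp (9.997). No control array was marked. The 6 F2 values come from 1 array and are not independent of each other, and the cause was not tested.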

How the results depend on the processing

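The count of genes that passed the test was 0 in all 26 alternatives for F2 minus control, and in 25 of 26 for each of the other comparisons. The exception was the lower array set alone, with 1 F3 array that is assumed to vary like the other groups, where 2 genes passed for F3 minus control (Obp2a and Treh) and 3 for F3 minus F2 (Obp2a, Treh and Wfdc12), named after their values were seen. With the replicate block, which the numbers did not warrant, 0 genes passed, and 10, 10 and 5 of the 10 acute phase genes were higher in F2 minus control, F3 minus control and F3 minus F2, as without it. No acute phase gene passed under any of these alternatives (Saa3 was not tested under the stricter filter), so the changes below concern direction only, and their cause was not tested. The number of acute phase genes higher in F2 minus control was 4 with array weights and 4 with F2 replicate 2 and control replicate 2 both left out, and 4 to 10 with 1 array left out. For F3 minus control it was 8 to 10 with 1 array left out. For F3 minus F2 it was 9 with array weights, 10 in the higher array set alone, 9 with both arrays left out, and 0 to 9 with 1 array left out. With array weights, F2 minus control changed sign for Saa1 -0.22, Saa2 -0.41, Saa3 -0.0747, Orm1 -0.18, Orm2 -0.26 and Lcn2 -0.55. With the higher array set alone, F2 minus control changed sign for Lcn2 -0.0973. With both arrays left out, F2 minus control changed sign for Saa1 -1.04, Saa2 -1.28, Saa3 -0.32, Orm1 -0.42, Orm2 -0.78 and Lcn2 -1.24. With 1 array left out, F2 minus control ran from -0.33 to 1.57 for Saa1, -0.54 to 1.63 for Saa2, -0.0858 to 0.53 for Orm1, -0.31 to 0.99 for Orm2, -0.81 to 0.93 for Lcn2 and -0.19 to 0.42 for Saa3. With array weights, F3 minus control changed sign for Saa4 -0.00684. With the lower array set alone, F3 minus control changed sign for Saa4 -0.0722. With both arrays left out, F3 minus control changed sign for Saa4 -0.0485. With 1 array left out, F3 minus control ran from -0.0485 to 0.15 for Saa4, -0.00886 to 1.07 for Orm2 and -0.36 to 1.24 for Lcn2. With quantile normalization, F3 minus F2 changed sign for Orm1 -0.00148. With array weights, F3 minus F2 changed sign for Saa3 0.29, Apcs 0.29, Crp 0.00634 and Cp 0.0102. With the array set as a block, F3 minus F2 changed sign for Saa3 0.12 and Cp 0.0215. With the higher array set alone, F3 minus F2 changed sign for Saa3 0.31, Saa4 0.0303, Apcs 0.28, Crp 0.0315 and Cp 0.00374. With the lower array set alone, F3 minus F2 changed sign for Cp 0.0832. With both arrays left out, F3 minus F2 changed sign for Saa3 0.40, Apcs 0.53, Crp 0.0872 and Cp 0.0617. With 1 array left out, F3 minus F2 ran from -0.47 to 0.84 for Orm2, -0.63 to 1.38 for Lcn2, -0.22 to 0.40 for Saa3, -0.64 to 0.53 for Apcs, -0.17 to 0.0872 for Crp, -0.0892 to 0.0617 for Cp, -0.28 to 1.32 for Saa1, -0.32 to 1.50 for Saa2 and -0.12 to 0.42 for Orm1. Pearson's r turned negative within the 8 arrays below the gap in Saa1 for Saa3 with Apcs (-0.34), Saa3 with Cp (-0.47), Orm1 with Apcs (-0.15), Orm1 with Cp (-0.24), Orm2 with Apcs (-0.28), Orm2 with Cp (-0.27), Apcs with Lcn2 (-0.57), Apcs with Crp (-0.0715) and Lcn2 with Cp (-0.55). Pearson's r turned negative within the higher array set for Orm1 with Cp (-0.14), Orm2 with Cp (-0.074) and Lcn2 with Cp (-0.12). The array set as a block also raised F3 minus control by over 1.5 times, to Saa1 1.55, Saa2 1.57, Saa3 0.36, Saa4 0.10, Orm1 0.57, Orm2 0.98 and Lcn2 1.22, and F3 minus F2 to Saa1 0.93, Saa2 0.99, Orm1 0.30, Orm2 0.52 and Lcn2 0.96, with 0 of these passing. Of the 476 correlations under alternatives 428 moved by under 0.2 and 12 turned sign, and of 130 ranges 125 moved by less than the within-group SD. Most limits come from 4 arrays per group, and most values of Saa3 and Lcn2 and the lowest of Saa2 and Apcs lie under the 95th percentile of negative control probe sets.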

Other observations

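Some genes of the other positive acute phase list did not follow the order of the arrays seen in the 10 genes. The 2 given with values here, Vnn1 and Hamp, were picked after their values were seen and were not tested. Hamp2, like Hamp, was highest in control replicate 2 and lowest in control replicate 1, and Lifr was highest in F2 replicate 4. Vnn1, the pantetheinase gene, measured 8.79, 7.38, 8.74 and 9.85 in F2, 8.13, 8.77, 7.89 and 6.68 in F3, and 7.31, 10.18, 7.79 and 7.71 in control livers, so that control replicate 2, the lowest array for 8 of the 10 genes, was the highest here. Hamp, which encodes the iron hormone hepcidin, measured 12.26, 12.56, 12.46 and 12.29 in F2, 12.40, 12.20, 12.47 and 12.41 in F3, and 12.02, 12.70, 12.65 and 12.51 in control livers. Its highest array was likewise control replicate 2 and its lowest control replicate 1, while within F2 replicate 2 was its highest array and within F3 replicate 3, as for Saa1.

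Orm3, a further orosomucoid gene outside the 10 and also picked after its values were seen, measured 6.05, 7.88, 6.56 and 5.48 in F2, 6.34, 5.94, 6.23 and 7.94 in F3, and 7.98, 5.01, 6.45 and 6.09 in control livers. Its 3 highest arrays were the same as those of Orm1 and Orm2, 1 from each group.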
